A study of Mus musculus with 10 samples.

Results

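The SoxC genes *Sox4*, *Sox11* and *Sox12*, the SoxD genes *Sox5* and *Sox6*, and the SoxE genes *Sox8* and *Sox9* were examined in ATAC-seq peak lists of the embryonic mouse epicardium and of epicardium-derived cells (EPDCs). These 7 genes were chosen by name among 21911 protein-coding genes. A peak was assigned to a gene when its summit lay inside the gene or within 100 kb of it on mm10, and a promoter was the sequence within 1 kb of the gene's 5′ end. By this rule 386 of 184764 accessible regions lay at the 7 genes, of which 326 were called in at least 2 libraries and could be tested.

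SOX proteins bind DNA through an HMG box, which enters the minor groove at words such as AACAATG or AACAAAG and bends the double helix. SoxC proteins act as activators in many progenitor populations, among them neural and mesenchymal progenitors. SoxD proteins have no activation or repression domain of their own, and SOX5 and SOX6 are best known for working beside SOX9 on cartilage genes. SoxE proteins include SOX9, a factor of chondrocytes and of the cushion and valve mesenchyme of the heart, and SOX8, which acts with its relatives in neural crest, glia and testis.

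ATAC-seq marks open chromatin by the insertion of adapters with the transposase Tn5. All cells came from C57BL/6J embryos of the genotype Rosa26tdTomato;Wt1CreERT2/+, in which tamoxifen at E9.5 switched on tdTomato in cells with an active *Wt1* promoter, so that their descendants stayed marked. Epicardial cells were sorted as CD31-tdTomato+PDPN+ at E11.5 (3 samples of 6 pooled hearts each) and at E17.5 (3 samples of 4 pooled hearts each). EPDCs were sorted as CD31-tdTomato+PDPN- from pooled hearts at E12.5 (1 sample) and E13.5 (2 samples, the second with 2 technical replicates that share 1 peak list). Marked cells are therefore descendants of *Wt1*-expressing cells of E9.5 that passed a surface-marker gate, and littermate hearts were pooled, so that no value belongs to 1 embryo. EPDCs differ from the epicardial samples in stage as well as in cell population, and both differences cannot be told apart.

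The 9 lists held 94909 to 142743 summits on chromosomes 1 to 19, X and Y, and give no read totals. The EPDC lists also held 252 to 268 summits on other sequences, where the epicardial lists held 0, and their highest −log10 p reached 20589.5 to 70107 against 559 to 891 in the epicardial lists. Whether the EPDC lists came from a separate processing run is not given in the sources used here, and such a difference cannot be told apart from that between EPDCs and epicardium. Values were therefore compared as ranks within a list: each region received the percentile of its strongest summit by −log10 p among all summits of that list, from 0 (no summit called) to 100 (the strongest). An uncalled region lies below the threshold of the peak caller and is not shown to be closed. In these bulk samples, a site open in fewer cells and a site less open in each cell cannot be told apart.

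The labels were checked against promoters of marker genes. Of 7 epicardial markers, *Wt1* lay at 90.4 to 97.5 in all 9 libraries, *Upk3b* at 97.0 to 99.2 in the epicardial libraries and at 22.8 to 73.6 in EPDCs, and *Msln* and *Krt19* were called at E17.5 alone. Of 6 mesenchymal markers, 2 were higher and 1 lower in EPDCs than at E11.5, where 5.39% of all promoters were higher and 12.4% lower. *Postn* was uncalled at E11.5 and reached 71.7 to 81.8 in EPDCs, *Col3a1* had 42.7 to 70.9 at E11.5 and 73.5 to 87.5 in EPDCs, and *Dcn*, the lower one, had 96.1 to 97.4 and 86.3 to 88.9. The endothelial promoters *Pecam1*, *Cdh5*, *Tie1* and *Emcn*, the blood promoters *Ptprc*, *Spi1* and *Csf1r*, and the glial gene *Sox10* were at 0 throughout, whereas *Kdr* lay at 88.1 to 93.2. Over 5 cardiomyocyte markers the mean percentile was 38.3 to 42.4 at E11.5, 28.2 to 31.5 at E17.5 and 33.6 to 34.9 in EPDCs, with *Myh6* at 0, *Tnnt2* at 59.9 to 89.7 and *Actn2* at 77.8 to 94.5.

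The regions on which the comparisons turn are shown first, as 299 bases each of the GRCm38.p6 reference (plus strand, 5′ to 3′). Matches to 6 short words were searched on both strands: the SOX words AACAATG and AACAAAG, the AP-1 word TGANTCA, the TEAD word GGAATG, the GATA word AGATAA and the E-box CAGCTG. Within each region those bases were taken that hold the most SOX words, then the most matches to all 6 words, then those nearest the summit. Capitals mark the matches, which do not overlap each other in the printed sequences. The first 4 are intergenic sequences at SoxC genes, shown because each was called in all 3 libraries of 1 group and weakly or not at all in the others.
Sox11 region called only at E11.5 (chr12:27367083-27367381): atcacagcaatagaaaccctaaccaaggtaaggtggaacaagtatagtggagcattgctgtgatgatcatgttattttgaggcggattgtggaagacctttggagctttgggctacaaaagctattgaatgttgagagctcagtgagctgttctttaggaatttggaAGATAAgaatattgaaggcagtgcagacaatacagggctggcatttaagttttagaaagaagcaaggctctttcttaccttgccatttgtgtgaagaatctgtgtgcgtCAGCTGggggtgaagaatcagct
Sox4 region called only at E17.5 (chr13:28917360-28917658): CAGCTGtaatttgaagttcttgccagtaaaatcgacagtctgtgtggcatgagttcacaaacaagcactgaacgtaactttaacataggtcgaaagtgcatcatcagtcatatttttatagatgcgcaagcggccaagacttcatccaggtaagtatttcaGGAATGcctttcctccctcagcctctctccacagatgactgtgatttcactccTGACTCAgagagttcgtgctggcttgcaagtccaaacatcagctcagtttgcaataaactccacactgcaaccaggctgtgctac
Sox4 region called only in EPDCs (chr13:28992458-28992756): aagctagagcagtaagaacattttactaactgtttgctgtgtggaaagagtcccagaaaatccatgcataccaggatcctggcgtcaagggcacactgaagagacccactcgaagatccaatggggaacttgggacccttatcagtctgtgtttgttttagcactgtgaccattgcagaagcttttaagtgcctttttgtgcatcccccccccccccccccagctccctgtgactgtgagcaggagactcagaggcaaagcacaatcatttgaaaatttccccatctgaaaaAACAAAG
Sox11 region highest in EPDCs (chr12:27294240-27294538): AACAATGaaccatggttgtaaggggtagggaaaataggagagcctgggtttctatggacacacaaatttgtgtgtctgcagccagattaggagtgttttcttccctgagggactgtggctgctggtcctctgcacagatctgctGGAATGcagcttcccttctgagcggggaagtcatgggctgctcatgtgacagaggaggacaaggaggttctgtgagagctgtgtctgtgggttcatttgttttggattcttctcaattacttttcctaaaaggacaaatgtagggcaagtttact

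The next pair comes from introns of the SoxD genes. The *Sox5* region was uncalled in all 3 libraries of E17.5, and the *Sox6* region, immediately upstream of an internal start of the gene, was called in EPDCs alone.
Sox5 region uncalled at E17.5 (chr6:144098121-144098419): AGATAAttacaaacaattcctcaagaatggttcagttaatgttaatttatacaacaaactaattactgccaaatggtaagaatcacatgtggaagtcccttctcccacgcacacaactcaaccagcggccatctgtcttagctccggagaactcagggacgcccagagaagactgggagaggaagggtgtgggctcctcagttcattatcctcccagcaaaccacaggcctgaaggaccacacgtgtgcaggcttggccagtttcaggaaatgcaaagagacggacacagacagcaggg
Sox6 region at an internal start, called only in EPDCs (chr7:115824717-115825015): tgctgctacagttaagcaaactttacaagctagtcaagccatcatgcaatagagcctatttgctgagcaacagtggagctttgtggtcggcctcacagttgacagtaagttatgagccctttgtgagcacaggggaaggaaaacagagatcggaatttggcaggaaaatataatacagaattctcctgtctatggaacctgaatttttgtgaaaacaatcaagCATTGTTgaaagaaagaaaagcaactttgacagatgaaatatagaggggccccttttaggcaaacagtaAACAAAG

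The last pair lies on either side of *Sox9* and moved in opposite ways between E11.5 epicardium and EPDCs.
Sox9 region highest in EPDCs (chr11:112844560-112844858): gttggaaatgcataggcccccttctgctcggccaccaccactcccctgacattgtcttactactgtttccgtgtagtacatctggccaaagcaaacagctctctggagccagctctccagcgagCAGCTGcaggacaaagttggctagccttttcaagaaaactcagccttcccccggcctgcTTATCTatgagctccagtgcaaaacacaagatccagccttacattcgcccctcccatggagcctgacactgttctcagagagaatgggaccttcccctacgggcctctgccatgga
Sox9 region highest at E11.5 (chr11:112772826-112773124): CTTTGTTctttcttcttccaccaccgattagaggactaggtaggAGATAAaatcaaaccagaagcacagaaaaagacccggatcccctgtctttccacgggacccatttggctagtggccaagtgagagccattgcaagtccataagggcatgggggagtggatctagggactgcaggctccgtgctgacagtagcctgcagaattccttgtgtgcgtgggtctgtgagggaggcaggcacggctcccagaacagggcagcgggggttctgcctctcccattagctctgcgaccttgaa

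In the printed bases, AACAATG occurs in the *Sox11* region highest in EPDCs and, on the minus strand as CATTGTT, in the *Sox6* region. AACAAAG occurs in the EPDC-restricted *Sox4* and *Sox6* regions and, as CTTTGTT, in the *Sox9* region highest at E11.5. The printed bases were chosen to hold SOX words wherever a region has them. A match describes the sequence and shows no binding.

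The first question was whether the chromatin around these genes differs between the early epicardium, the late epicardium and the cells that left it. Of the 386 regions, 96 (24.9%) were called in all 9 libraries, against 24.7% of all regions. Introns held 224 of them, intergenic sequence 99, noncoding genes 24, exons 23 and promoters 16. For 307 regions the nearest annotated start of a protein-coding gene was that of the SOX gene itself. This held for all 28 regions of *Sox4*, 24 of *Sox11* and 26 of *Sox9*, for 110 of 124 of *Sox5* and 102 of 112 of *Sox6*, but for 6 of 32 of *Sox12* and 11 of 40 of *Sox8*, whose surroundings hold 9 and 2 other protein-coding genes.

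The share of regions with a word was close to that of all regions of the same width. AACAATG occurred in 8.03% of the regions at the 7 genes and in 6.32% of all regions, AACAAAG in 10.9% and 11.4%, the AP-1 word in 21.2% and 22.8%, the TEAD word in 35.0% and 33.1%, the GATA word in 34.2% and 29.8%, and the E-box in 29.3% and 33.5%.

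Regions were compared by limma on the percentiles, with p-values adjusted over all 154147 tested regions. Between E17.5 and E11.5 epicardium, 20 of the 326 tested regions at the 7 genes were higher at E17.5 and 90 were lower (6.13% and 27.6%), where the shares over all tested regions were 9.14% and 24.9%. The median difference was −7.40 percentile points at the 7 genes and −3.95 over all regions. In EPDCs against E11.5 epicardium, 40 were higher and 71 lower (12.3% and 21.8%), against 10.3% and 22.7% of all regions. In EPDCs against E17.5 epicardium, 79 were higher and 44 lower against 19.9% and 16.4% of all regions, and the median difference was 4.24 against 0. These comparisons share libraries, so that their counts are not independent of each other.

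With equal numbers of top summits from each list, the split between directions moved: E17.5 against E11.5 then gave 32 higher and 53 lower regions at the 7 genes, with the higher share of all calls at 37.6% rather than 18.2%, as it moved from 26.8% to 45.6% over all regions. For EPDCs against E11.5 the split became 49 higher and 52 lower, a higher share of 48.5% rather than 36.0%, as it moved from 31.3% to 46.4% over all regions. Shares over all regions are therefore given beside the counts at single genes.

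**Figure D1:**
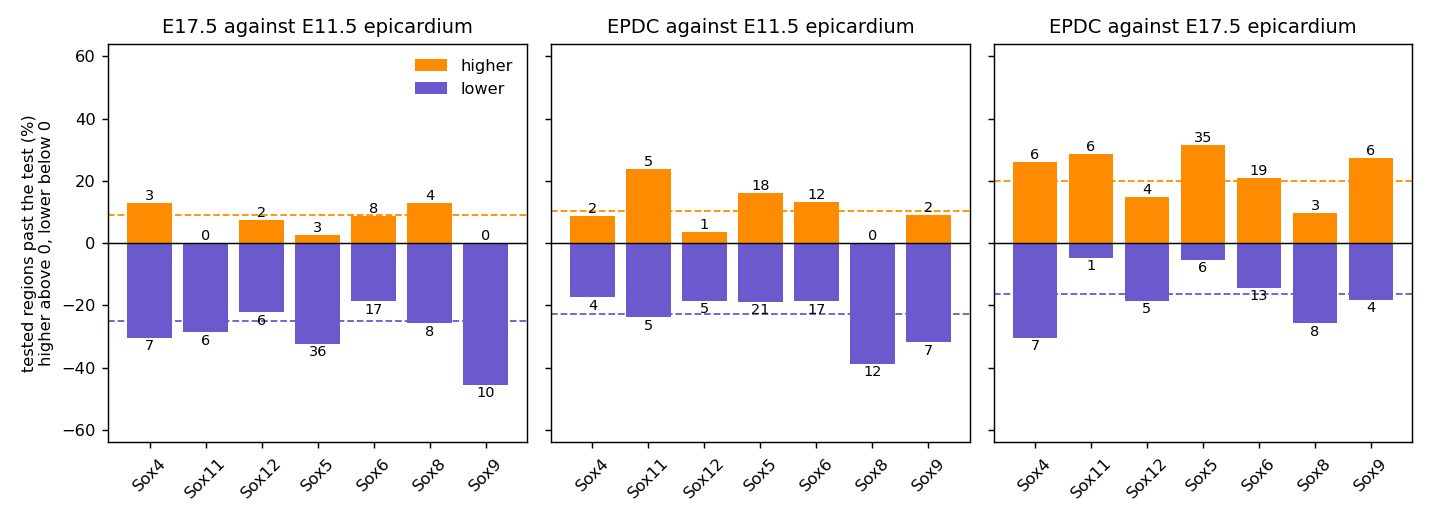
Share of tested regions (%) at each gene past the test (limma, adjusted p under 0.05), higher above 0 and lower below 0, for the 3 comparisons; numbers on the bars are counts of regions and dashed lines are the shares over all tested regions. The share of lower regions at E17.5 against E11.5 was 45.5% at *Sox9*, 32.4% at *Sox5* and 18.7% to 30.4% at the other genes, beside 24.9% of all regions. The share of higher regions in EPDCs against E17.5 was 31.5% at *Sox5* and 9.68% to 28.6% at the other genes, beside 19.9% of all regions. At *Sox4* the lower share in that comparison was 30.4%, beside 16.4%.

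The genes differed from each other in these counts. At E17.5 against E11.5, lower regions made up 45.5% at *Sox9* (10 of 22) and 32.4% at *Sox5* (36 of 111), but 18.7% at *Sox6* (17 of 91), beside 24.9% of all regions. In EPDCs against E11.5, 12 of 31 tested regions at *Sox8* were lower and none was higher, beside 22.7% and 10.3% of all regions. In EPDCs against E17.5, 35 regions at *Sox5* were higher and 6 lower, and 6 at *Sox11* were higher and 1 lower, beside 19.9% and 16.4%. No test compared the genes with each other.

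Regions called in all 3 libraries of 1 group and in none of the other 6 were few: 16 at E11.5, 10 at E17.5 and 15 in EPDCs, or 4.15%, 2.59% and 3.89% of the regions against 3.75%, 2.98% and 3.23% of all regions. Of those 15 EPDC-restricted regions, 6 lay at *Sox5*, 4 at *Sox6*, 3 at *Sox11* and 2 at *Sox4*. The E17.5-restricted regions lay at *Sox6* (3), *Sox4*, *Sox5* and *Sox8* (2 each) and *Sox12* (1), and the E11.5-restricted regions at *Sox5* (8), *Sox6* and *Sox8* (3 each) and *Sox11* (2). *Sox9* had none of any kind. Such a region passed the filter of 2 libraries through 1 group alone, so that a test of its summits repeats the choice. No p-value from such a test is given below. No called interval of another group overlapped 15 of the 16 E11.5-restricted, 7 of the 10 E17.5-restricted and 14 of the 15 EPDC-restricted regions (93.8%, 70.0% and 93.3%), against 93.8%, 87.3% and 94.8% of all regions so restricted.

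The word AACAAAG stood in 7 of the 15 EPDC-restricted regions (46.7%) and in 13.4% of the EPDC-restricted regions of the whole genome. AACAATG stood in 3 of them (20%), against 8.0%. Neither word was in any of the 16 E11.5-restricted regions, where the genome-wide shares were 12.3% and 7.22%. The AP-1 word was in 4 of the 10 E17.5-restricted regions (40.0%), against 37.6% of all E17.5-restricted regions. These are counts of few regions, chosen by their peaks, and were not tested.

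Promoters of the 7 genes were called in all 9 libraries. For *Sox4* the percentiles were 92.4, 92.0 and 95.3 at E11.5, 90.2, 92.0 and 89.7 at E17.5, and 89.9, 93.7 and 94.3 in EPDCs (listed here and below as E11.5 replicates 1 to 3, E17.5 replicates 1 to 3, and then the E12.5 EPDC sample and both E13.5 EPDC samples in the order of their numbers). For *Sox11* they were 94.3, 95.2 and 94.3, then 93.2, 94.5 and 93.3, then 88.9, 94.0 and 94.4. For *Sox12* they were 94.7, 97.5 and 96.4, then 94.1, 96.8 and 94.8, then 97.3, 94.8 and 94.6. The SoxC promoters thus lay at 88.9 or above in every list. Before rounding, all 3 E17.5 values of *Sox4* lay below those of E11.5 (−2.58, adjusted p = 0.25, limma), and the other groups overlapped at these promoters.

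Both SoxE promoters overlapped between the groups as well. *Sox8* had percentiles of 94.0, 95.9 and 93.5 at E11.5, 91.0, 95.4 and 95.2 at E17.5, and 94.0, 95.0 and 96.3 in EPDCs. *Sox9* had 88.1, 86.7 and 91.1, then 88.6, 88.0 and 86.8, then 88.7, 88.5 and 91.3. At the 5′ end of *Sox5* the values were lower, with 79.6, 65.0 and 70.8 at E11.5, 72.7, 76.7 and 74.4 at E17.5, and 77.6, 78.8 and 83.7 in EPDCs, which lay above all E17.5 values. Differences between group means ran from −2.58 to 8.23 percentile points over these 6 promoters, with adjusted p from 0.16 to 0.86.

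In order of the mean at E11.5, the promoters ran from *Sox12* (96.2 ± 1.42, SD, n = 3), *Sox11* (94.6 ± 0.532), *Sox8* (94.5 ± 1.30) and *Sox4* (93.2 ± 1.80) to *Sox9* (88.7 ± 2.26), *Sox6* (80.2 ± 4.62) and *Sox5* (71.8 ± 7.36). Neighbours in this order overlapped in their values, except that *Sox9* lay below *Sox4* and above *Sox6* in every E11.5 library. *Sox12* had the highest mean in each group, and *Sox11*, *Sox8* and *Sox4* exchanged places.

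*Sox6* alone passed the test at its 5′ end. Its percentiles were 74.8, 83.0 and 82.7 at E11.5, 69.9, 71.9 and 75.7 at E17.5, and 42.1, 75.3 and 15.2 in EPDCs, a difference of −36.0 (SE 10.6) between EPDCs and E11.5 epicardium (adjusted p = 0.034, limma), whereas the exact two-sided permutation test over 20 assignments gave 0.200, of a smallest possible 0.10. Over all promoters, 5.39% were higher and 12.4% lower in this comparison, a higher share of 30.3% of the calls that became 53.1% with equal numbers of summits, 63.3% by fold enrichment and 67.7% with the log2 score. The call was lost without any of the 3 E11.5 libraries, without E12.5 sample 1 or without E13.5 sample 2, with equal numbers of summits (−35.9, adjusted p = 0.066), with ranks by fold enrichment (−29.2, adjusted p = 0.13) and with the log2 score (adjusted p = 0.13), and an exact test against all 6 epicardial libraries over 84 assignments gave p = 0.0476. The E13.5 sample 1 lay within the E11.5 values and the other EPDC samples below them. Within a window of 2 kb, chosen after these values were seen, the percentiles were 78.0, 83.0 and 85.1 at E11.5, 83.2, 86.5 and 83.3 at E17.5, and 78.8, 76.9 and 83.9 in EPDCs, and the difference between EPDCs and E11.5 was −2.16 (SE 2.72, adjusted p = 0.62). The region at chr7:116039434-116039934, centred 0.888 kb upstream of the 5′ end, had 75.1, 83.0 and 82.7, then 70.8, 71.9 and 75.7, then 78.8, 75.3 and 83.9. The call at *Sox6* thus rested on whether a summit lay within 1 kb of the 5′ end. The promoters most like that of *Sox6*, by the Euclidean distance over the 9 percentiles, were *Csad* (34.7 points), *Pla2g3* (35.5) and *Fgfrl1* (39.8).

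No promoter of the 7 genes passed the test in E17.5 against E11.5, where 3.83% of 14922 promoters were higher and 14.0% lower, or in EPDCs against E17.5, where 15.1% were higher and 14.1% lower.

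The annotated 5′ end of *Sox5* belongs to transcripts that GENCODE M21 lists as noncoding, and a cluster of coding starts lies 572 kb downstream at chr6:144209452-144209568. There the percentiles were 85.4, 91.9 and 87.7 at E11.5, 42.2, 69.5 and 63.5 at E17.5, and 86.2, 82.3 and 84.3 in EPDCs. All 3 libraries of E17.5 lay below the other 6. With the best of all coding starts in place of the 5′ end, *Sox5* fell by 29.9 percentile points from E11.5 to E17.5 (SE 5.39, adjusted p = 0.0017) and was 25.9 higher in EPDCs than at E17.5 (adjusted p = 0.0028), and the difference between EPDCs and E11.5 was −4.02 (adjusted p = 0.65). The exact permutation test gave 0.10, the smallest p of 3 against 3, for both contrasts with E17.5. Over the 15622 genes tested at any coding start, 3.84% were higher and 14.4% lower in E17.5 against E11.5, 5.29% and 12.9% in EPDCs against E11.5, and 15.1% and 14.2% in EPDCs against E17.5. A further group of 3 *Sox5* starts, at chr6:143947088-143947106, was uncalled in every library.

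*Sox6* also had internal starts of its own. At the start at chr7:115824710, the summits within 1 kb had percentiles of 11.3, 0 and 13.9 at E11.5, 5.5, 9.1 and 17.3 at E17.5, and 45.9, 49.5 and 60.0 in EPDCs, so that all EPDC libraries lay above the epicardial ones. At chr7:116031047 the percentiles were 65.6, 52.4 and 51.4, then 56.7, 61.5 and 52.2, then 40.5, 64.1 and 69.9, with no separation of groups. The other 5 annotated coding starts inside the gene were uncalled throughout.

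**Figure D2:**
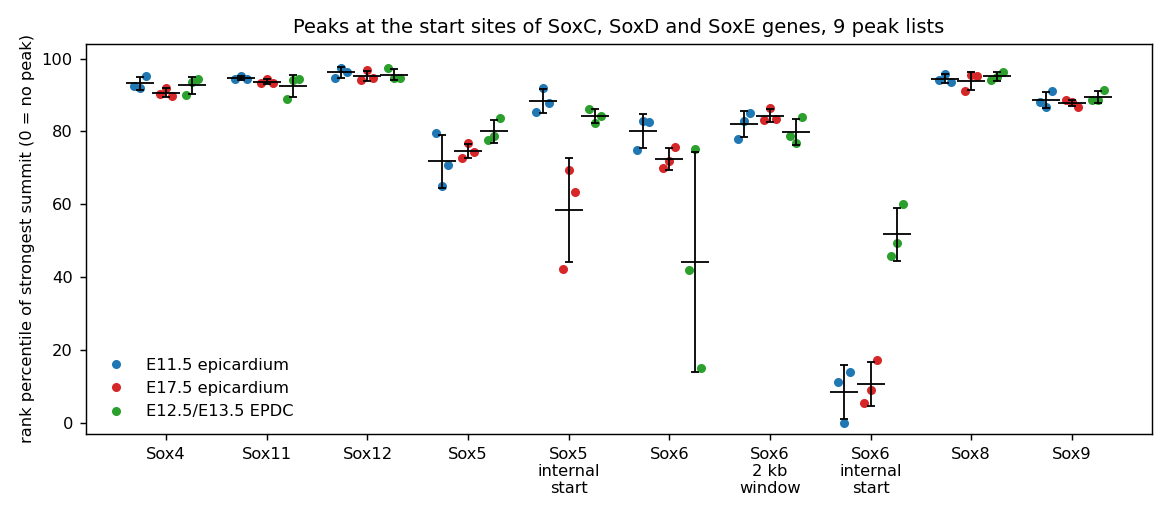
Rank percentile of the strongest summit (0 = no peak) at the start sites, 1 point per library in blue (E11.5 epicardium), red (E17.5 epicardium) and green (EPDCs), with the mean and SD of 3 libraries in black. The E17.5 points lie lowest at the internal start of *Sox5* (42.2 to 69.5), the EPDC points lie highest at the internal start of *Sox6* (45.9 to 60.0), and the spread of the *Sox6* 5′ end in EPDCs is gone in the 2 kb window.

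The number of summits at a locus is given per 100000 summits of its list. The *Sox5* locus had 73.7, 69.4 and 74.7 at E11.5, 43.2, 44.6 and 44.7 at E17.5, and 73.5, 78.1 and 74.3 in EPDCs (raw numbers of 88, 99 and 103, then 41, 57 and 48, then 75, 84 and 98). The E17.5 libraries lay below all others. On the scale of log2(summits per 100000 + 1), the *Sox5* locus was lower at E17.5 than at E11.5 (−0.70, SE 0.07, adjusted p = 1.9e-07) and higher in EPDCs than at E17.5 (0.76, SE 0.07, adjusted p = 9.2e-09). Between EPDCs and E11.5 the difference was 0.05 (adjusted p = 0.64). The medians over all loci were 0.116, −0.125 and −0.0231 for these comparisons in the same order, so that the fall of *Sox5* ran against the median.

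The *Sox6* locus had 59.5, 58.1 and 58.0 at E11.5, 64.3, 71.1 and 79.1 at E17.5, and 60.8, 57.6 and 51.6 in EPDCs. It rose from E11.5 to E17.5 by 0.28 (SE 0.08, adjusted p = 0.01) and was lower in EPDCs than at E17.5 (−0.33, adjusted p = 0.0024). Without E17.5 replicate 3, the highest, the first difference was 0.205 (adjusted p = 0.092), and with equal numbers of summits the second was −0.175 (adjusted p = 0.098). Raw numbers at *Sox6* were 71, 83 and 80 at E11.5, then 61, 91 and 85 in the shorter lists of E17.5.

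Of all 20470 loci, 24.5% were higher and 12.0% lower in E17.5 against E11.5, 8.88% and 10.7% in EPDCs against E11.5, and 13.7% and 28.6% in EPDCs against E17.5. Against this background, 2 of the 7 loci passed in the first comparison (*Sox6* higher, *Sox5* lower), 1 in the second (*Sox4* higher) and 3 in the third (*Sox5* and *Sox11* higher, *Sox6* lower).

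The *Sox4* locus had 15.9, 15.4 and 14.5 summits per 100000 at E11.5, 17.9, 18.8 and 16.8 at E17.5, and 18.6, 20.5 and 19 in EPDCs. All EPDC values exceeded those of E11.5 (log2 difference 0.32, SE 0.11, adjusted p = 0.035). The call was lost without any of the 3 E11.5 libraries or without E13.5 sample 1 (adjusted p from 0.059 to 0.13). The *Sox11* locus had 10.9, 10.5 and 13.1, then 10.5, 7.0 and 14.0, then 13.7, 15.8 and 14.4, with 9 to 19 raw summits. Its EPDC values were higher than those of E17.5 (0.49, SE 0.16, adjusted p = 0.02) but overlapped them, and without E17.5 replicate 2 the difference was 0.250 (adjusted p = 0.2). Without E13.5 sample 1 the adjusted p was 0.09. *Sox12* (means of 22.0, 24.0 and 24.3 at E11.5, E17.5 and in EPDCs), *Sox8* (23.8, 24.2 and 20.2) and *Sox9* (18.5, 16.6 and 19.9) did not pass, with adjusted p from 0.072 to 0.95. With equal numbers of summits, *Sox8* was lower in EPDCs than at E11.5 (−0.312, adjusted p = 0.045) and than at E17.5 (−0.351, adjusted p = 0.014), and with 50 kb than at E17.5 (−0.358, adjusted p = 0.04).

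**Figure D3:**
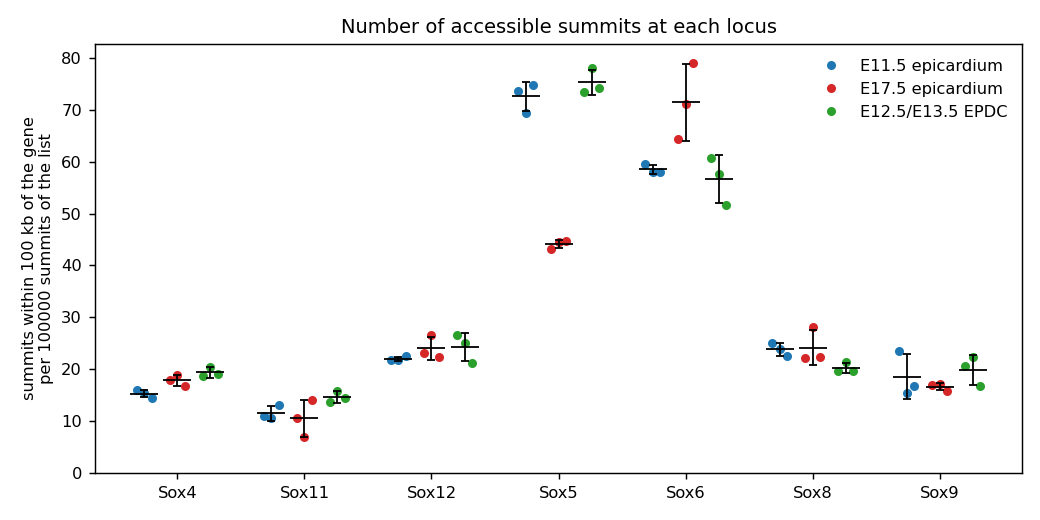
Summits inside each gene or within 100 kb of it, per 100000 summits of the list, 1 point per library in blue (E11.5 epicardium), red (E17.5 epicardium) and green (EPDCs), with the mean and SD of 3 libraries in black. The E17.5 points of *Sox5* lie at 43.2 to 44.7, below all points of the other groups, and those of *Sox6* at 64.3 to 79.1, above them.

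Per 100 kb of locus, the means over the 9 lists were 13.6 summits at *Sox12*, 13.3 at *Sox8*, 10.5 at *Sox9*, 10.1 at *Sox4*, 9.59 at *Sox6*, 6.93 at *Sox11* and 6.68 at *Sox5*, against a median of 7.02 over all genes.

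*Sox4*, a SoxC gene without introns on chromosome 13 (chr13:28948919-28953713, minus strand), had 28 regions. Of 23 tested, 3 were higher and 7 lower at E17.5 than at E11.5 (13.0% and 30.4%). In EPDCs, 2 were higher and 4 lower than at E11.5 (8.70% and 17.4%), and 6 higher and 7 lower than at E17.5 (26.1% and 30.4%). Over all regions the shares were 9.14% and 24.9%, 10.3% and 22.7%, and 19.9% and 16.4% in the same order. The first split was 4 higher and 4 lower with equal numbers of summits, and the last turned to 6 higher and 4 lower when ranked by fold enrichment. The region at chr13:28917272-28917772, intergenic and 36.2 kb downstream of the 5′ end, was called at 51.9, 76.2 and 71.0 in the E17.5 libraries and in no other. The difference between the stages was 66.4. It holds the AP-1, TEAD and E-box words. The region at chr13:29006408-29006908, 52.9 kb upstream, had the reverse pattern, with 70.1, 82.1 and 73.3 at E11.5, no call at E17.5, and 13.1, 0 and 6.7 in EPDCs. It was lower at E17.5 (−75.2, SE 5.90, adjusted p = 3.1e-05) and in EPDCs (−68.6, adjusted p = 5.2e-05).

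A pair of further *Sox4* regions was higher in EPDCs. The region at chr13:28992273-28992773, 38.8 kb upstream, had percentiles of 51.0, 62.8 and 57.8 in EPDCs and no summit elsewhere, a difference of 57.2 from either stage. An overlapping interval was called at a percentile of 12.2 in E11.5 replicate 3. The region at chr13:28927278-28927778, 26.2 kb downstream, had 32.7, 23.6 and 38.4 at E11.5, no call at E17.5, and 51.3, 61.2 and 73.5 in EPDCs, so that the 3 groups did not overlap. All 3 differences passed (−31.6, adjusted p = 0.007; 30.4, adjusted p = 0.009; 62.0, adjusted p = 0.00013). It holds both SOX words. The strongest region outside the promoter, at chr13:28873873-28874373 in a noncoding gene, was present everywhere, at 80.9 to 92.4.

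*Sox11*, the SoxC gene of chromosome 12 (chr12:27334264-27342574, minus strand), had 24 regions and no other protein-coding gene nearby. At E17.5 against E11.5, 6 of 21 tested regions were lower and none higher (28.6% and 0%, against 24.9% and 9.14% of all regions). In EPDCs against E11.5, 5 were higher and 5 lower (23.8% each, against 10.3% and 22.7%). Beside the main promoter summit, a region 761 bp upstream of the 5′ end, at chr12:27343085-27343585, had summits at 65.1, 69.2 and 72.5 at E11.5, at 76.2 in E17.5 replicate 3 and in no EPDC library (−68.9 in EPDCs against E11.5, adjusted p = 0.015, limma). It lay within the promoter interval of all 9 libraries, whose percentiles by intervals were 86.7 to 94.0. The region at chr12:27366982-27367482, 24.7 kb upstream, was called at 65.0, 76.5 and 72.6 in the E11.5 libraries and nowhere else, a difference of −71.3 in both E17.5 and EPDCs. Farther upstream, the region at chr12:27390295-27390795 fell in both groups by unequal steps, with 72.0, 68.3 and 68.0 at E11.5, 16.7, 36.2 and 36.3 at E17.5, and 8.6, 0 and 0.2 in EPDCs. The differences from E11.5 were −39.7 (adjusted p = 0.0017) at E17.5 and −66.5 (adjusted p = 0.00013) in EPDCs, and EPDCs were also lower than E17.5 (−26.8, adjusted p = 0.012, but −20.7 and 0.052 with a −log10 q of at least 5).

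Other regions of *Sox11* were higher in EPDCs. At chr12:27294190-27294690, 48.1 kb downstream, the percentiles were 2.3, 4.3 and 4.6 at E11.5, 7.0, 0 and 8.4 at E17.5, and 79.1, 76.9 and 81.7 in EPDCs. EPDCs exceeded E11.5 by 75.6 (SE 5.22, adjusted p = 1.8e-05) and E17.5 by 74.1 (adjusted p = 1e-05). The region holds AACAATG, AP-1 and TEAD words. At chr12:27304920-27305420, 37.4 kb downstream, EPDCs had 68.0, 65.8 and 75.6 and no other library a call, a difference of 69.8.

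*Sox12*, the SoxC gene of chromosome 2 (chr2:152393611-152398063, minus strand), lies among 9 other protein-coding genes, and its 32 regions mostly lay nearer to the start of one of those. Its strongest promoter summits lay 862 to 965 bp upstream of the 5′ end. The region centred 89 bp upstream was weaker, with 89.2, 87.0 and 84.8 at E11.5, 81.2, 85.3 and 77.7 at E17.5, and 88.8, 82.1 and 82.5 in EPDCs. Of 27 tested regions, 2 were higher and 6 lower at E17.5 than at E11.5 (7.41% and 22.2%, against 9.14% and 24.9% of all regions). In EPDCs, 1 was higher and 5 lower than at E11.5 (3.70% and 18.5%, against 10.3% and 22.7%). Against E17.5, 4 were higher and 5 lower in EPDCs (14.8% and 18.5%, against 19.9% and 16.4%). The last split turned to 5 higher and 3 lower when ranked by fold enrichment. At chr2:152436263-152436763, in an intron of *6820408C15Rik*, the percentiles were 45.9, 55.0 and 59.9 at E11.5, 0, 6.5 and 0 at E17.5, and 0 in all EPDCs (−51.4 at E17.5 and −53.6 in EPDCs, both with adjusted p = 0.00012). At chr2:152447459-152447959, nearest to *Defb23*, they were 55.8, 51.4 and 50.9, then 0, 20.1 and 0, then 61.5, 52.5 and 63.4. E17.5 was lower than E11.5 (−46.0, adjusted p = 0.00088) and than EPDCs, by 52.5 (adjusted p = 0.00032).

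Other calls at *Sox12* were lost under some alternatives. At chr2:152427923-152428423 summits were called at E17.5 alone, at 23.4, 70.1 and 66.6 (a difference of 53.3), but intervals of E11.5 replicates 1 and 2 and of E12.5 sample 1 overlapped it at 63.4, 62.0 and 42.0. By overlapping intervals the difference between stages was 7.94 (adjusted p = 0.84). The promoter region at chr2:152397189-152397689, 624 bp inside the gene, had summits at 27.8, 28.9 and 50.8 in EPDCs (35.8 above E11.5, adjusted p = 0.0049), and the promoter intervals of E11.5 replicate 1 and E17.5 replicates 2 and 3 also covered it. Ranked by fold enrichment this difference was 1.33 (adjusted p = 0.55), and by intervals it was 63.4 (adjusted p = 0.12).

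*Sox5*, which encodes a long and a short SoxD protein from different starts, spans 954 kb on chromosome 6 (chr6:143828425-144781977, minus strand) and held 124 regions, of which 111 lay in introns. At E17.5 against E11.5, 3 of 111 tested regions were higher and 36 lower (2.70% and 32.4%, against 9.14% and 24.9% of all regions). The median difference was −12.1 percentile points against −3.95 over all regions. In EPDCs against E17.5, 35 were higher and 6 lower (31.5% and 5.41%, median 9.21), against 19.9% and 16.4% of all regions. In EPDCs against E11.5, 18 were higher and 21 lower (16.2% and 18.9%, against 10.3% and 22.7%). With equal numbers of summits, the first split was 5 higher and 22 lower of 81 tested, that of EPDCs against E17.5 was 31 higher and 6 lower, and that of EPDCs against E11.5 turned to 20 higher and 13 lower. Mean percentiles of the cardiomyocyte markers were also lowest at E17.5 (28.2 to 31.5 against 38.3 to 42.4 at E11.5), with 2 of their 3 tested promoters lower at E17.5 than at E11.5 and higher in EPDCs than at E17.5, beside 14.0% and 15.1% of all promoters. Their part in the counts at *Sox5* and at the other genes was not tested.

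The gene was split at its internal coding start, a choice made after values were seen. Upstream of it, over 672 kb, 3 of 68 tested regions were higher and 17 lower at E17.5 than at E11.5. At or downstream of it, over 481 kb, none of 43 was higher and 19 were lower. In EPDCs against E17.5, 22 were higher and 6 lower upstream, and 13 higher and none lower downstream. Over all regions, 9.14% were higher and 24.9% lower at E17.5 than at E11.5, and 19.9% and 16.4% in EPDCs than at E17.5. The division of the gene was not repeated under other settings. The region at the internal start, chr6:144209398-144209898, was lower at E17.5 than at E11.5 (−29.9, SE 5.95, adjusted p = 0.004), with fold enrichments of its summits over local background between 6.55 and 15.3.

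The intronic region at chr6:144098092-144098592, printed above in part, had 50.4, 73.0 and 44.8 at E11.5, no call at E17.5, and 60.7, 68.5 and 73.9 in EPDCs. E17.5 was lower than E11.5 (−56.1, adjusted p = 0.00058) and EPDCs were higher than E17.5 (67.7, adjusted p = 0.00015). The region at chr6:143784846-143785346 lies beyond the 3′ end, 997 kb from the 5′ end and nearest to the start of *Etnk1*. It had 78.4, 82.8 and 86.2 at E11.5, none at E17.5, and 31.1, 0 and 0 in EPDCs (−82.5, SE 8.52, adjusted p = 0.00012, and −72.1, adjusted p = 0.00029).

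Other intronic regions of *Sox5* were also higher in EPDCs. At chr6:144056635-144057135 the percentiles were 0, 13.0 and 0 at E11.5, 32.4, 31.6 and 8.4 at E17.5, and 73.0, 60.8 and 76.5 in EPDCs, which were higher than E11.5 by 65.8 (adjusted p = 0.0004) and than E17.5 by 46.0 (adjusted p = 0.002). At chr6:144466678-144467178 they were 44.4, 71.4 and 72.7 in EPDCs and 0 elsewhere (a difference of 62.8). The region at chr6:143907605-143908105 was called at E11.5 alone, at 58.6, 50.3 and 60.2 (a difference of −56.3).

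A summit 8.81 kb inside *Sox5*, at chr6:144772919-144773419, was called at E17.5 alone, at 61.2, 70.9 and 67.8 (a difference of 66.6), and the region holds 2 AP-1 words. Intervals of E11.5 replicates 1 and 2 overlapped it at 59.1 and 69.4, and by intervals the difference was 19.7 (adjusted p = 0.35). The strongest region of the gene, at chr6:144074804-144075304, lay at 88.2 to 96.9 in all 9 libraries.

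**Figure D4:**
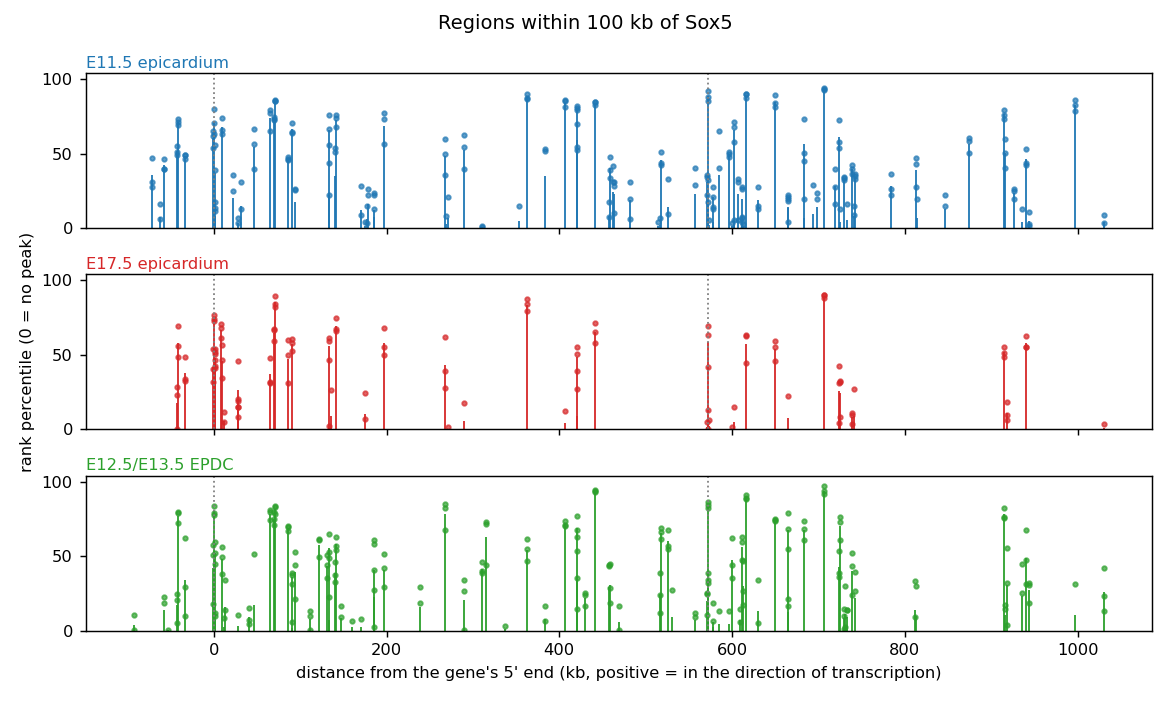
Rank percentile (0 = no peak) of the 124 regions at *Sox5* by distance from the 5′ end in kb, positive in the direction of transcription; bars are group means, points are single libraries, and dotted lines mark the 5′ end and the internal coding start 572 kb downstream. Around and beyond the internal start the E17.5 panel has fewer and lower bars than the others.

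*Sox6*, the other SoxD gene (chr7:115470872-116038796, minus strand, 568 kb), held 112 regions, of which 88 lay in introns. Of 91 tested, 8 were higher and 17 lower at E17.5 than at E11.5 (8.79% and 18.7%, against 9.14% and 24.9% of all regions). In EPDCs, 12 were higher and 17 lower than at E11.5 (13.2% and 18.7%, against 10.3% and 22.7%). Against E17.5, 19 were higher and 13 lower in EPDCs (20.9% and 14.3%, against 19.9% and 16.4%). With equal numbers of summits, where 69 were tested, the first split turned to 13 higher and 6 lower and the second to 16 higher and 12 lower. The split of EPDCs against E17.5 turned to 18 higher and 22 lower without E17.5 replicate 1, and was 18 higher and 18 lower with the log2 score.

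The region at *Sox6* that was most reduced in EPDCs lay outside the gene, 61.5 kb upstream in an intron of *1110004F10Rik* and nearest to the start of *Gm4353*. This region, chr7:116100072-116100572, had 90.6, 95.9 and 91.7 at E11.5, 94.3, 98.8 and 96.9 at E17.5, and 45.9, 6.8 and 32.2 in EPDCs. EPDCs were lower than E11.5 (−64.4, SE 8.06, adjusted p = 0.00039) and than E17.5 (−68.4, adjusted p = 0.00017). It holds 3 AP-1 words.

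Inside *Sox6*, the region at chr7:115625056-115625556 had 61.7, 39.4 and 46.0 at E11.5, 0, 0 and 0.7 at E17.5, and 77.3, 78.4 and 83.2 in EPDCs. The groups did not overlap, and all 3 differences passed (−48.8, adjusted p = 0.00042; 30.6, adjusted p = 0.0058; 79.4, SE 6.45, adjusted p = 2.1e-05). The region at chr7:115568864-115569364 had 56.5, 69.1 and 68.3, then 18.5, 9.8 and 0, then 50, 47.2 and 56.6 (−55.2, adjusted p = 0.00026 at E17.5 against E11.5, and 41.9, adjusted p = 0.00095 in EPDCs against E17.5).

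Other *Sox6* regions were uncalled at E11.5. At chr7:115967201-115967701 the percentiles were 0 in all 3 E11.5 libraries, 51.3, 42.5 and 33.5 at E17.5, and 50, 73.8 and 81.2 in EPDCs, with differences from E11.5 of 42.4 (adjusted p = 0.0043) and 68.3 (adjusted p = 0.00039). At chr7:115671226-115671726 they were 0 at E11.5, 39.9, 46.0 and 41.7 at E17.5, and 0, 56.9 and 62.3 in EPDCs. That call between stages (42.5, SE 14.2, adjusted p = 0.046) was lost in each of the 6 fits that left out 1 epicardial library.

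The EPDC-restricted region at the internal start, chr7:115824562-115825062, had 45.9, 49.5 and 60.0 in EPDCs and no summit in the epicardial libraries (a difference of 51.8). It holds 1 AACAATG and 2 AACAAAG words. The exonic region at chr7:115472782-115473282 was called at E17.5 alone, at 22.1, 32.5 and 17.3 (a difference of 24.0), and the intronic region at chr7:115646186-115646686 at E11.5 alone, at 41.5, 33.5 and 19.2 (−31.4).

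*Sox8*, a SoxE gene on chromosome 17 (chr17:25565892-25570686, minus strand), shares its surroundings with *Sstr5* and *Lmf1*, and 11 of its 40 regions were nearest to its own start. Of 31 tested, 4 were higher and 8 lower at E17.5 than at E11.5 (12.9% and 25.8%, against 9.14% and 24.9% of all regions). In EPDCs, none was higher and 12 were lower than at E11.5 (0% and 38.7%, against 10.3% and 22.7%). Against E17.5, 3 were higher and 8 lower in EPDCs (9.68% and 25.8%, against 19.9% and 16.4%). The first split turned to 7 higher and 3 lower with equal numbers of summits and to 5 higher and 4 lower when ranked by fold enrichment. The intergenic region at chr17:25536276-25536776, 34.2 kb downstream and nearest to *Sox8*, was called at E17.5 alone, at 59.8, 58.0 and 50.1 (a difference of 56.0), and holds an AP-1 word.

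The strongest EPDC differences at *Sox8* lay in introns of *Lmf1*. At chr17:25595375-25595875 the percentiles were 54.0, 67.2 and 65.2 at E11.5, 76.7, 86.7 and 81.0 at E17.5, and 13.1, 2.6 and 11.8 in EPDCs, with no overlap of the groups. EPDCs were lower than E11.5 (−53.0, adjusted p = 0.00017) and E17.5 (−72.3, SE 5.74, adjusted p = 1.8e-05), and E17.5 was higher than E11.5 (19.4, adjusted p = 0.027). At chr17:25642002-25642502 they were 68.0, 73.6 and 54.8, then 80.3, 87.5 and 80.4, then 0, 0 and 36.7 (−53.3, adjusted p = 0.0032, and −70.5, adjusted p = 0.00048). At chr17:25618379-25618879 the order was another, with 63.8, 69.8 and 73.9, then 55.5, 39.2 and 46.1, then 61.5, 68.0 and 74.6 (−22.2, adjusted p = 0.012, and 21.1, adjusted p = 0.014, for the contrasts with E17.5). Ranked by fold enrichment, the second was 16.8 (adjusted p = 0.072). The region at chr17:25520487-25520987, nearest to *Sstr5*, was called at E11.5 alone, at 29.2, 44.1 and 37.8 (a difference of −37.0).

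*Sox9*, the SoxE gene of chromosome 11 (chr11:112782224-112787760, plus strand), had 26 regions, all nearest to its own start. Of 22 tested, none was higher and 10 were lower at E17.5 than at E11.5 (0% and 45.5%, against 9.14% and 24.9% of all regions). The median difference was −16.8, against −3.95 over all regions. With equal numbers of summits, 1 was higher and 7 lower of 19 tested. In EPDCs, 2 were higher and 7 lower than at E11.5 (9.09% and 31.8%, against 10.3% and 22.7%). Against E17.5, 6 were higher and 4 lower in EPDCs (27.3% and 18.2%, against 19.9% and 16.4%). The promoter did not separate the groups, so that differences at *Sox9* lay in distal regions.

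At chr11:112844459-112844959, 62.5 kb downstream, the percentiles were 24.0, 29.8 and 34.5 at E11.5, 0, 21.5 and 0 at E17.5, and 80.7, 89.8 and 89.9 in EPDCs. The groups did not overlap, and EPDCs exceeded E11.5 by 57.3 (SE 7.22, adjusted p = 0.0004) and E17.5 by 79.6 (adjusted p = 3.9e-05), while E17.5 was lower than E11.5 (−22.3, adjusted p = 0.04). At chr11:112772807-112773307, 9.17 kb upstream in the noncoding gene *BC006965*, they were 57.7, 56.5 and 66.3 at E11.5, 0 in all 3 E17.5 libraries, and 35.4, 16.5 and 14.3 in EPDCs. E17.5 (−60.2, SE 6.81, adjusted p = 0.00018) and EPDCs (−38.1, adjusted p = 0.0025) were both lower than E11.5, and EPDCs were higher than E17.5 (22.0, adjusted p = 0.031).

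The region at chr11:112811401-112811901, 29.4 kb downstream, was lower in EPDCs, with 73.2, 77.7 and 62.9 at E11.5, 47.9, 62.8 and 54.5 at E17.5, and 33.3, 0 and 0 in EPDCs. The difference from E11.5 was −60.1 (adjusted p = 0.0014) and that from E17.5 was −44.0 (adjusted p = 0.0056), but by overlapping intervals the latter was −8.98 (adjusted p = 0.29).

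Further regions of the *Sox9* locus were chosen after their values were seen. At chr11:112689948-112690448, 92.0 kb upstream, the percentiles were 48.8, 53.1 and 66.7 at E11.5, 10.8, 0 and 0 at E17.5, and 81.3, 80.1 and 87.5 in EPDCs (−52.6, SE 6.29, adjusted p = 0.00025 between stages; 26.8, adjusted p = 0.0099 and 79.4, adjusted p = 1.9e-05 for EPDCs). At chr11:112840447-112840947, 58.5 kb downstream, the epicardial libraries lay at 69.8 to 83.4 and EPDCs at 40.0, 17.3 and 43.7 (−48.1, adjusted p = 0.00075 against E11.5, and −43.7, adjusted p = 0.00086 against E17.5). The region at chr11:112850478-112850978, 68.5 kb downstream, was the strongest of the locus, above the promoter, and was called in every library at 92.2 to 97.0. Neighbouring regions 58.5, 62.5 and 68.5 kb downstream of *Sox9* thus had 3 different orders of the groups.

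**Figure D5:**
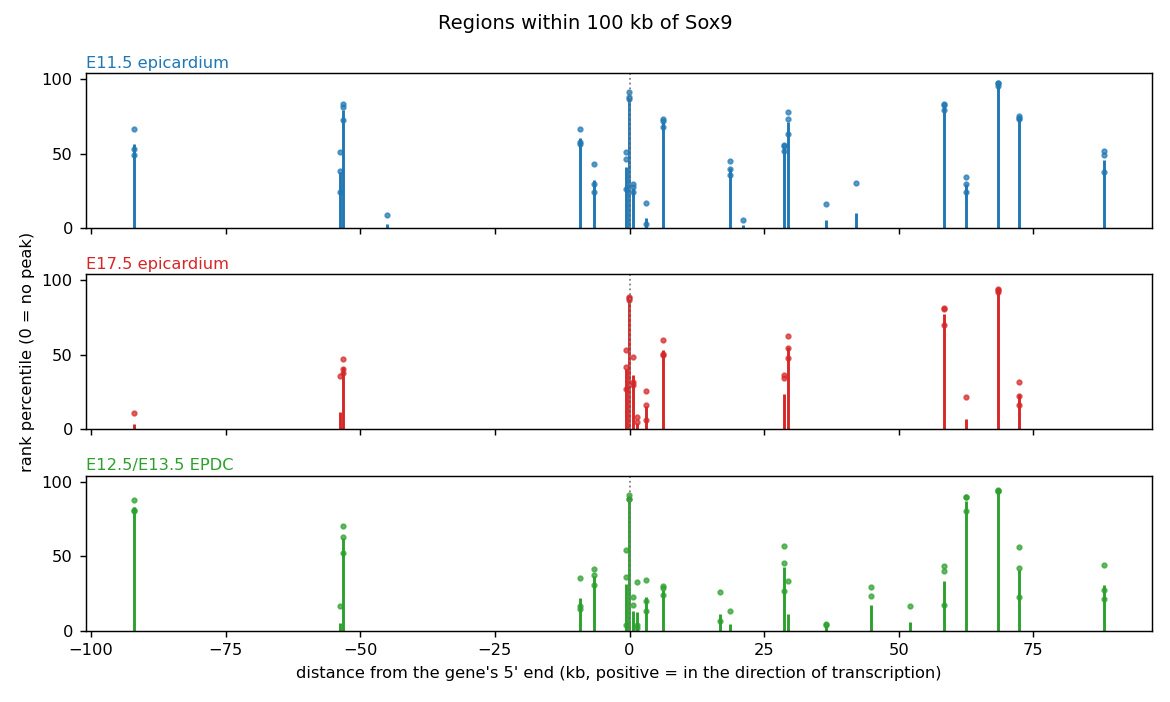
Rank percentile (0 = no peak) of the 26 regions at *Sox9* by distance from the 5′ end in kb, positive in the direction of transcription; bars are group means and points single libraries. The region 92.0 kb upstream lies at 80.1 to 87.5 in EPDCs and at 0 to 10.8 at E17.5, and the region 68.5 kb downstream lies at 92.2 to 97.0 in all 9.

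Promoters of the other SOX genes and of genes known as SOX targets were read from lists. *Sox13*, the remaining SoxD gene, lay at 68.0 to 80.9 with no call, and *Sox10*, the remaining SoxE gene, and *Sry* were uncalled throughout. Of 5 SoxB genes, *Sox14* was higher and *Sox1* and *Sox21* were lower at E17.5 than at E11.5, beside 3.83% and 14.0% of all promoters. None passed in EPDCs against E11.5, beside 5.39% higher and 12.4% lower of all promoters. In EPDCs against E17.5, *Sox1* was higher (28.5, adjusted p = 0.014, limma) and *Sox14* lower (−43.1, adjusted p = 0.0011), beside 15.1% and 14.1%. *Sox15* was lower at E17.5 (57.7, 66.3 and 51.3 against 76.5, 84.2 and 86.9 at E11.5) and higher in EPDCs than at E17.5 (20.6, adjusted p = 0.0054), whereas none of the 3 SoxF genes passed any test.

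Of 10 cartilage and valve matrix genes, 7 could be tested. At E17.5 against E11.5, *Col9a3*, *Col11a1* and *Hapln1* were lower and none was higher, where 14.0% of all promoters were lower and 3.83% higher. In EPDCs against E11.5, 1 was lower, *Col9a3* (−34.0, adjusted p = 0.014), and none was higher, beside 12.4% and 5.39% of all promoters. In EPDCs against E17.5, *Acan*, *Col11a1* and *Hapln1* were higher and none was lower, beside 15.1% and 14.1%. The mean of *Col9a3* was 30.9 in EPDCs and 32.4 at E17.5. *Col11a1*, a fibrillar collagen gene of cartilage, had 96.7, 98.1 and 98.0 at E11.5, 88.5, 91.7 and 89.5 at E17.5, and 98.3, 98.1 and 97.2 in EPDCs. *Hapln1*, which links hyaluronan to proteoglycans, had 75.5, 73.7 and 76.0, then 47.0, 59.2 and 62.0, then 70.0, 67.1 and 74.3. Of the listed markers of chondrocytes, *Matn1* and *Col9a1* were at 0 in all 9 libraries, whereas *Col2a1* lay at 29.8 to 58.7 and *Acan* at 58.4 to 79.8. Of 5 tested SoxC targets or partners, none passed in the first 2 comparisons, and 1 was higher in EPDCs than at E17.5.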

How the data were processed

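The data comprised 9 peak lists of bulk ATAC-seq from 10 samples, grouped by the sample records into E11.5 epicardium, E17.5 epicardium and EPDCs, with 3 libraries each. The authors processed reads with the nf-core atacseq pipeline on mm10 and called peaks on fragment pairs by MACS2 2.2.9.1 (q-value 0.01, all summits kept). Each list belongs to 1 library, except that the technical replicates of 1 E13.5 sample share a list. The deposited lists give a fold enrichment over local background and for each summit its −log10 p and −log10 q, and were not normalized between libraries.

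Summits of chromosomes 1 to 19, X and Y were extended by 250 bp on each side, and of windows that overlapped the one with the highest depth-normalized score was kept, which left 184764 regions. A region or promoter received the rank percentile, by −log10 p, of its strongest summit in each list, and 0 without one. The percentile moves with the number of weak summits called, so equal numbers of top summits (94909 per list) were taken as an alternative. Locus counts were analysed as log2(summits per 100000 + 1). Features called in at least 2 libraries were fitted with limma 3.58.1 (trend and robust moderation, 1 spread over the 3 groups), and p-values were adjusted by Benjamini-Hochberg over all features, with a threshold of 0.05. Single values were also compared by exact two-sided permutation tests. The scripts were tested on simulated data. A spread of 3 independent pooled samples per group limits the precision of every SD.

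Genes and starts came from GENCODE M21 and sequence from GRCm38.p6 (RefSeq), the build of mm10. The 7 genes and all lists were chosen with earlier results of these data known. Regions named are, at each gene, the promoter region, the region past the test with the largest difference in each direction of each comparison, and the highest of those called in all libraries of 1 group and no other. Named in addition, after their values were seen, were the strongest regions of *Sox4*, *Sox5*, *Sox6*, *Sox8*, *Sox9* and *Sox12*, the regions 92.0 kb upstream and 58.5 kb downstream of *Sox9*, 50.7 kb downstream and 0.761 kb upstream of *Sox11*, 0.888 kb upstream of *Sox6* and at the internal start of *Sox5*, and the split of *Sox5*. Alternatives were a −log10 q of at least 5, ranks by fold enrichment, a log2 score, overlapping intervals, no filter, a fit of the compared groups alone, other windows, any coding start, and each library left out. Same-numbered replicates of E11.5 and E17.5 did not deviate together, so the comparison was not paired. Python 3.11.15 and R 4.3.3 were used. Reads and the authors' differential tests were not analysed here.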

Additional observations from a re-analysis of the deposited data

How the results depend on the processing

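Of 519 values of the named regions under alternatives, over 39 results, 18 lost the call, none reversed and the others kept their direction and their side of the threshold. These regions were chosen for the largest differences in the same lists, so that the few losses do not measure how firm the calls are. Counts of regions past the test at the 7 genes (110, 111 and 123 for E17.5 against E11.5, EPDCs against E11.5 and EPDCs against E17.5) became 180, 195 and 212 with 250 kb in place of 100 kb, where more regions count as members, and ranged from 97 to 110, from 96 to 126 and from 107 to 146 with 1 library left out. Promoters past the test (0, 1 and 0) became 1, 0 and 1 with any coding start. Ranking by fold enrichment gave 0 in EPDCs against E11.5 and 1 in EPDCs against E17.5, and for EPDCs against E11.5 both overlapping intervals and the 2 kb window gave 0. With 1 library left out, the count ranged from 0 to 1 in either EPDC comparison, where the 1 of EPDCs against E17.5 arose without E13.5 sample 1. *Sox5* at E17.5 against E11.5 reversed from 2.78 at its 5′ end to −29.9 with any coding start, since another site is then read.

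Loci past the test (2, 1 and 3) became 0 with 250 kb and 3 with equal numbers of summits in EPDCs against E11.5, and ranged from 0 to 1 there and from 1 to 2 in E17.5 against E11.5, lowest without E17.5 replicate 3, when 1 library was left out. With 250 kb, *Sox9* was lower at E17.5 than at E11.5 (−0.277, adjusted p = 0.01) and higher in EPDCs than at E17.5 (0.390, adjusted p = 0.00048), and *Sox8* passed in the opposite directions (0.221, adjusted p = 0.016, and −0.264, adjusted p = 0.0041). The *Sox6* difference between stages was then 0.156 (adjusted p = 0.1), that of *Sox4* in EPDCs against E11.5 was 0.186 (adjusted p = 0.099), and that of *Sox11* in EPDCs against E17.5 was 0.283 (adjusted p = 0.071). With equal numbers of summits, the 5′ end of *Sox5* was higher in EPDCs than at E11.5 by 16.6 (adjusted p = 0.047), and the call at that of *Sox6* was lost (−35.9, adjusted p = 0.066), both of which also held with the log2 score (0.612, adjusted p = 0.039, and −1.52, adjusted p = 0.13). Where no construction above shows it, the cause was not tested.

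With 1 library left out, background counts moved too. In EPDCs against E11.5, 1850 lower promoters became 869 and 1035 without E11.5 replicates 2 and 3, 1212 without the E12.5 sample, and 906 and 3171 without the first and the second sample of E13.5, 15930 higher regions became 25452 without the E12.5 sample, and 2199 lower loci became 1276 to 1353 without any E11.5 library or E13.5 sample 1. In E17.5 against E11.5, 572 higher promoters became 348 and 342 without E17.5 replicates 2 and 3, 2096 lower promoters became 1289 and 5015 higher loci became 3336 without E11.5 replicate 2. The 2110 lower promoters of EPDCs against E17.5 became 1227, 1344 and 1255 without E17.5 replicate 2, E17.5 replicate 3 and E13.5 sample 1.

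Over all promoters, the higher share of calls moved from 21.4% to 58.5% with equal numbers of summits and to 72.3% with the log2 score in E17.5 against E11.5, where the promoters of the 7 genes had no call. It moved from 30.3% to 53.1%, 63.3% and 67.7% with equal numbers, fold enrichment and the log2 score in EPDCs against E11.5, and from 51.7% to 75.5% by fold enrichment in EPDCs against E17.5. With the replicate number as a block in the fit of the 6 epicardial libraries, 123 regions (24 higher, 99 lower), 0 promoters and 2 loci passed. Deviations of same-numbered libraries correlated at 0.0158, 0.0789 and −0.0638 over 45564 regions, so that the numbers did not pair the samples. The lists give no read depth, and weak sites below the threshold of the peak caller are not seen.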

Other observations

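Several of the strongest regions at these loci lie nearer to other genes. At *Sox12* the highest mean percentile belonged to an intronic region nearest to the start of *Rbck1* (chr2:152332232-152332732), at 96.2 to 99.2 in the 9 libraries. At *Sox6* it belonged to a region nearest to *Gm4353* (chr7:116093027-116093527), at 99.0 to 99.7. At *Sox8* it was an exonic region of *Lmf1* (chr17:25578893-25579393), at 96.3 to 98.4.

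At *Sox11* the region at chr12:27291617-27292117, 50.7 kb downstream, had 88.1, 87.0 and 91.3 at E11.5, 10.8, 27.3 and 39.5 at E17.5, and 59.2, 22.1 and 39.5 in EPDCs. The region 48.1 kb downstream was high in EPDCs, where E11.5 had 2.3 to 4.6. Regions at *Sox11* thus had opposite orders of E11.5 epicardium and EPDCs, as those downstream of *Sox9* did.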
